A study of Mus musculus with 11 samples.

Results

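Chemokines are small secreted proteins that direct the movement of leukocytes, and their genes were followed here in mouse muscle stem cells of 2 ages and 3 VCAM1 gates. The members are the genes of the deposited expression table named Ccl or Cxcl with a number, Cx3cl1 and Xcl1, which gave 36 of 20640 gene symbols. Of these, 22 encode CC and 12 encode CXC chemokines. The members are genes of 1 family in bulk RNA, picked by symbol and with earlier results of these data known. Every library came from Pax7-CreERT2;Rosa-YFP mice given tamoxifen at 12 to 14 weeks of age, so that Cre made under the Pax7 locus switched on YFP in muscle stem cells and in whatever those cells later formed. Limb muscle was digested and YFP+ cells without surface CD31, CD45 and Sca-1 were sorted. The 3 middle-aged libraries hold YFP+ cells for which no VCAM1 gate is named, from mice of 10 to 14 months (the labels) or 12 to 14 months (the protocol). Geriatric mice were over 28 months old, and their YFP+ cells were sorted into 3 VCAM1-high, 2 VCAM1-low and 3 VCAM1-negative libraries, VCAM1 being an adhesion molecule on the surface of muscle stem cells. These are called the high, low and negative gate. Age, gating and the time since labelling change together against the middle-aged group and cannot be told apart. No source used here says that replicates are separate animals, so p-values measure the spread between these samples, which may be technical.

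CC and CXC chemokines are named after the spacing of their first cysteines and act through G protein-coupled receptors on the cells they attract. Monocytes follow CCL2 and CCL7 through CCR2, eosinophils follow CCL11 through CCR3, and neutrophils follow CXC chemokines with an ELR motif, such as CXCL1 and CXCL2, through CXCR2. CXCL9 and CXCL10 are induced by interferons and attract T cells through CXCR3, while CCL19, CCL21 and CXCL12 guide the steady traffic of lymphocytes and progenitors. In injured muscle such signals bring in the neutrophils and macrophages that clear debris. Many inflammatory chemokine genes are under the control of NF-κB, and they are also known to be switched on when muscle is dissociated into single cells.

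Expression is given in RPKM, reads scaled by transcript length and by library size. Depth was estimated from the step that 1 read makes in low values, at 19.9 to 29.85 Mreads (M for mega) per library. Vcam1 averaged 80.3 ± 37.6 RPKM in VCAM1-negative and 290 ± 117 in VCAM1-high libraries (SD, n = 3 each), in the order of the gates. The stem cell marker Chodl lay between 449 and 1719 RPKM in all 11 libraries, and Pax7 itself was low, at 1.71 to 7.85. The 7 stem cell markers summed to 2047 to 2559 RPKM at middle age, 1006 to 2515 in the high gate, 869 to 1567 in the low gate and 655 to 1293 in the negative gate. Of these 7, Itga7, Vcam1 and Calcr were lower by limma in VCAM1-negative than in middle-aged cells, beside 7.38% of all genes. The same 3 were lower in the geriatric mean, beside 7.81%, and the list medians were -1.14 and -0.88 log2 units. Vcam1 encodes the protein of the gate, so the sort itself favours its fall in VCAM1-negative cells, and it counts in the sums above. The part of these falls in the chemokine values was not tested. Markers of other cells were also read. The sum of 8 macrophage marker genes was 777 RPKM in VCAM1-high replicate 3 and 2.64 to 203 in the other libraries. The sum of 5 myofibre genes was 536 to 5728 RPKM in the negative gate and 40.2 to 241 elsewhere. A sum of 6 endothelial genes reached 100 RPKM in replicate 3 at middle age and 30.3 in that of the high gate, and 6 T and NK cell genes summed to at most 1.71. In bulk RNA, fewer cells of a type and less RNA per cell cannot be told apart.

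All 36 members together held between 0.380% (VCAM1-negative replicate 3) and 1.38% (VCAM1-high replicate 1) of the summed RPKM of a library. Cxcl1, Ccl11, Ccl7 and Ccl2 made up 82.5% to 92.4% of that family sum and were the 4 members at 100 RPKM or more in every library. Cxcl1 ranked between 4th and 110th of all genes in a library. Of the members, 14 reached 1 RPKM in every library and 25 reached it in at least 2 libraries, the filter used for testing. The other 11 stayed at or below 1.16 RPKM, a value of Ccl5 in VCAM1-high replicate 3, and 3 of them (Ccl1, Ccl20 and Ccl26) were listed at 0 throughout.

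**Figure D1:**
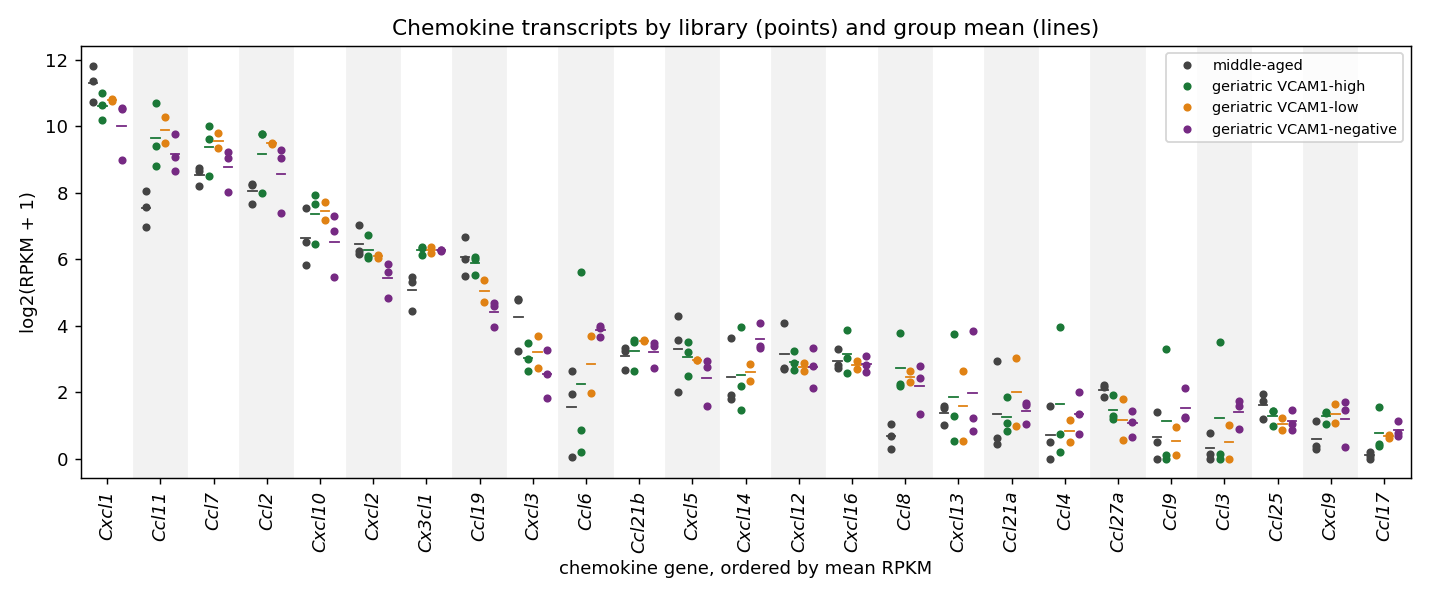
Levels of the 25 tested chemokine genes as log2(RPKM + 1), with 1 point per library and a short line at each group mean, coloured by group. Cxcl1 sits highest in every group, Ccl11 and Cx3cl1 have their 3 middle-aged points below all 8 geriatric points, and the single high points of Ccl6, Ccl4, Ccl9 and Ccl3 belong to VCAM1-high replicate 3.

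Differences were tested on log2(RPKM + 1) with limma across 11568 genes, and adjusted p-values are Benjamini-Hochberg values over all of these. Fold changes on this scale understate the change of low genes. Between the mean of the 3 geriatric gates and the middle-aged group, 5 of the 25 tested members passed adjusted p under 0.05. Ccl11, Cx3cl1 and Ccl8 were higher in geriatric cells, where 8.04% of all genes were called in that direction, and Ccl19 and Cxcl3 were lower, against 7.81% of all genes. The members' median log2 fold change was 0.43, beside -0.01 over all tested genes. Of the 25 members, 7 (Ccl3, Ccl4, Ccl8, Ccl9, Ccl17, Ccl21a and Cxcl9) had fewer than 2 middle-aged libraries at 1 RPKM and so entered the test through geriatric libraries, which favours higher values there. Against middle-aged cells, VCAM1-negative cells had 3 members higher (7.06% of all genes) and 3 lower (7.38%). VCAM1-low cells had Ccl11 and Cx3cl1 higher (2.22% of all genes). VCAM1-high cells had none called, where 0.605% of all genes were called in either direction and 5 members had an unadjusted p under 0.05. These comparisons share the same 3 middle-aged libraries. The fit of the geriatric mean treats the geriatric libraries as independent, although same-numbered gates shared deviations from their group means (correlations of 0.403 to 0.581). Its standard errors and p-values may therefore be too small.

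Deviations from the group mean were correlated between same-numbered VCAM1-high and middle-aged libraries (0.211, 0.332 and 0.554). VCAM1-high replicate 1 and middle-aged replicate 2 reached 0.331 as well, so pairing of these groups by number is uncertain. With replicate number as a block in all 11 libraries, 5 members were higher in VCAM1-high than in middle-aged cells, beside 4.17% of all genes, by limma with that block. They were Ccl11 (2.12 ± 0.41 log2 units, SE of the fit, adjusted p = 0.0235), Ccl7 (0.83 ± 0.19, adjusted p = 0.0384), Ccl2 (1.13 ± 0.24, adjusted p = 0.0320), Cx3cl1 (1.20 ± 0.22, adjusted p = 0.0209) and Ccl8 (2.05 ± 0.48, adjusted p = 0.0393). None of the 5 passed in a blocked fit of these 2 groups alone, and none passed in the 11-library blocked fit without VCAM1-high replicate 1 or replicate 2. For the geriatric mean the 11-library block gave the same 5 genes higher, beside 14.4% of all genes, and Cxcl1, Ccl19, Cxcl3 and Ccl27a lower, beside 16.4%, although the numbers of the VCAM1-negative and middle-aged libraries are not shown to pair.

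**Figure D2:**
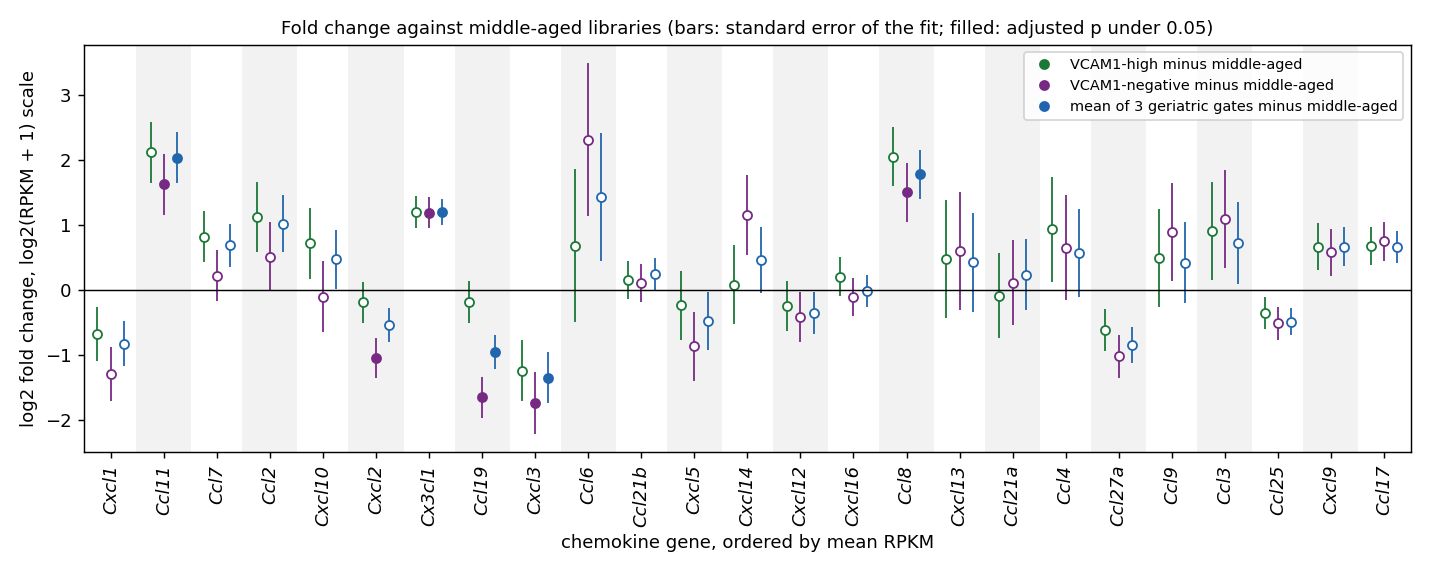
Log2 fold changes on the log2(RPKM + 1) scale against the middle-aged libraries for the 25 tested chemokine genes, from limma without a block, with the standard error of the fit as bars and filled points where the adjusted p was under 0.05. Ccl11, Cx3cl1 and Ccl8 lie above 0 in the 3 contrasts shown, and Cxcl1, Cxcl3 and Ccl27a lie below 0 in the 3.

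Ccl11, for eotaxin-1, which attracts eosinophils, had the largest log2 fold change among the members called in the geriatric mean, on the log2(RPKM + 1) scale. On that scale low genes are held back, and the ratio of mean RPKM was 4.28 for Ccl11 and 8.08 for the low gene Ccl8. Ccl11 measured 125, 262 and 190 RPKM at middle age (replicates 1 to 3), 1683, 685 and 452 in the high gate, 1237 and 725 in the low gate and 869, 538 and 399 in the negative gate. Every geriatric library was above every middle-aged library, which held for 4 members (Ccl11, Cx3cl1, Ccl8 and Ccl17) and for 9.04% of all tested genes. Of these members, Ccl8 and Ccl17 entered the test through geriatric libraries, which favours such a split. Ccl11 thus averaged 192 ± 68.6 RPKM in middle-aged cells and 940 ± 654 in VCAM1-high cells (SD, n = 3 each). The geriatric mean of gates was higher by 2.04 ± 0.39 log2 units (limma adjusted p = 0.0102), and the call was lost without middle-aged replicate 1 (adjusted p = 0.0545). Against middle-aged cells the difference was 2.36 ± 0.52 in VCAM1-low (adjusted p = 0.0388) and 1.63 ± 0.47 in VCAM1-negative cells (adjusted p = 0.0429). Both calls fell away when any library of the groups compared was left out, with adjusted p between 0.0537 and 0.228. Replicate 1 was the highest Ccl11 library in each geriatric gate. Ccl11 is also made by fibro-adipogenic progenitors, whose 6 marker genes summed to 515 to 1227 RPKM at middle age, 555 to 909 in the high gate, 558 to 669 in the low gate and 537 to 985 in the negative gate. None of the 6 was at 0, and Pdgfra, which defines these progenitors, stayed at 0.11 to 2.37 RPKM. Within that list Dcn was higher in the geriatric mean (2.51 ± 0.67 log2 units, limma adjusted p = 0.0314), from 24.5, 52.9 and 485 RPKM at middle age to 326 to 795. Col3a1 fell by 3.83 ± 0.64 (adjusted p = 0.00652), from 290 to 337 RPKM at middle age to 6.46 to 201, and the other 4 genes did not pass. The part of these cells in the Ccl11 values was not tested.

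Ccl8, for a monocyte and eosinophil attractant, was a low gene whose geriatric libraries also all lay above the middle-aged ones. Its values were 0.231, 0.614 and 1.04 RPKM at middle age, 3.52, 3.71 and 12.6 in the high gate, 5.17 and 3.90 in the low gate and 5.90, 4.33 and 1.53 in the negative gate. The 2 ages did not overlap, although VCAM1-negative replicate 3 came close to middle-aged replicate 3, and the 3 gates overlapped each other. Ccl8 was higher by 1.78 ± 0.38 log2 units in the geriatric mean (limma adjusted p = 0.0147), and not past the threshold without middle-aged replicate 1 (adjusted p = 0.0707). In VCAM1-negative cells the difference was 1.51 ± 0.45 (adjusted p = 0.0479), and this call was kept in 3 of 11 omissions of 1 library. It was lost without any middle-aged library, VCAM1-high replicate 1, either VCAM1-low library, or VCAM1-negative replicate 1 or 2 (adjusted p 0.0531 to 0.153). Ccl8 has a transcript of 0.511 kb, on which 1 read is 0.098 RPKM at the lowest estimated depth, so the middle-aged values rest on few reads. All geriatric libraries but only middle-aged replicate 3 reached the 1 RPKM of the filter. Ccl8 is expressed by macrophages, and VCAM1-high replicate 3, the library with the highest macrophage marker sum (777 RPKM), also had the highest Ccl8 value, 12.6. In VCAM1-high replicate 1, where the macrophage genes Csf1r, Adgre1 and Mrc1 were listed at 0 and the 8 markers summed to 2.64 RPKM, Ccl8 was 3.52 RPKM. In middle-aged replicate 3, with a marker sum of 126, it was 1.04. The part of macrophage RNA in Ccl8 was not tested.

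Ccl2 and Ccl7, for the main monocyte attractants MCP-1 and MCP-3, lie beside Ccl11 on chromosome 11 and varied more with replicate number. Ccl2 read 303, 304 and 203 RPKM at middle age, 880, 869 and 255 in the high gate, 727 and 712 in the low gate and 525, 621 and 167 in the negative gate. Replicate 3 of VCAM1-high and of VCAM1-negative fell inside or below the middle-aged range, and the other 6 geriatric libraries lay above it. Ccl7 read 403, 431 and 297 RPKM at middle age, 1031, 780 and 359 in the high gate, 883 and 652 in the low gate and 594, 531 and 262 in the negative gate, with the same split. Neither gene passed in the geriatric mean (1.02 ± 0.44 log2 units and limma adjusted p = 0.129 for Ccl2, 0.69 ± 0.33 and 0.163 for Ccl7). With the replicate block in 11 libraries both passed in this comparison, at 0.87 ± 0.21 (adjusted p = 0.0130) for Ccl2 and 0.58 ± 0.16 (adjusted p = 0.0239) for Ccl7. Without the 3 libraries numbered 3, both passed (adjusted p = 0.00496 for Ccl2 and 0.0336 for Ccl7). Each passed without VCAM1-high replicate 3 alone, and Ccl2 also without VCAM1-negative replicate 3. Ccl12, a further member of this cluster of genes, stayed at or below 0.808 RPKM and was not tested.

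Cx3cl1 encodes fractalkine, a membrane-anchored chemokine that can be shed and that binds CX3CR1 on monocytes and macrophages. It measured 20.8, 39.2 and 43.1 RPKM at middle age, 82.5, 79.8 and 68.7 in the high gate, 71.5 and 81.8 in the low gate and 76.3, 75.8 and 77.0 in the negative gate. The 8 geriatric libraries formed a narrow band above the middle-aged values, and their gate means differed little, at 77.0, 76.6 and 76.3 RPKM. Cx3cl1 rose by 1.20 ± 0.20 log2 units in the geriatric mean (limma adjusted p = 0.00645), a ratio of means of 2.23. It was the only member whose call in that comparison was kept in all 11 omissions of 1 library (adjusted p 0.00478 to 0.0218). Against middle-aged cells Cx3cl1 was higher by 1.20 ± 0.24 in VCAM1-negative (adjusted p = 0.0142) and by 1.20 ± 0.27 in VCAM1-low cells (adjusted p = 0.0388). The first call was lost without VCAM1-negative replicate 2 (adjusted p = 0.0510). The second was lost without middle-aged replicate 1 or 2, VCAM1-high replicate 1, either VCAM1-low library, or VCAM1-negative replicate 1 or 3 (adjusted p 0.0539 to 0.335). Between VCAM1-negative and VCAM1-high cells Cx3cl1 differed by -0.01 ± 0.24 log2 units. Endothelial cells also make fractalkine. Their 6 markers summed to 1.87 to 100 RPKM at middle age, 2.07 to 30.3 in the high gate, 11.7 to 23.1 in the low gate and 8.68 to 42.4 in the negative gate, with none at 0. In the order of the replicates the sums were 1.87, 3.66 and 100 at middle age, where Cx3cl1 ran in the same order, and 2.07, 5.66 and 30.3 in the high gate, where it ran in the opposite one. None of the 5 tested endothelial markers passed in the geriatric mean, and the part of these cells in Cx3cl1 was not tested.

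The ELR-motif genes Cxcl1, Cxcl2, Cxcl3 and Cxcl5, which attract neutrophils, lie in a cluster of chemokine genes on chromosome 5 and each had their lowest group mean in VCAM1-negative cells. The promoters of 3 of them are shown because they share a κB-type motif. The letters below are from RefSeq on build GRCm38.p6, read 5′ to 3′ on the gene's strand and placed before the transcription start. Capitals mark matches to GGGNNNTTCC on either strand, which overlap where the motif reads on both strands.
Cxcl1, chr5:90891145-90891204, + strand, bases 100 to 41 before the start: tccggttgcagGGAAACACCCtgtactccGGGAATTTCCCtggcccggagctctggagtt
Cxcl2, chr5:90903789-90903848, + strand, bases 110 to 51 before the start: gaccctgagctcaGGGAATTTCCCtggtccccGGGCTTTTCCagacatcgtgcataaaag
Cxcl3, chr5:90786011-90786070, + strand, bases 90 to 31 before the start: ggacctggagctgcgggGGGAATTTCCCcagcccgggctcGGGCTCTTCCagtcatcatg
RefSeq promoters were at hand for 26 of the 36 members. The other 10 (Ccl2, Ccl4, Ccl5, Ccl7, Ccl11, Ccl24, Ccl26, Cxcl5, Cxcl16 and Cxcl17) were not examined for motifs. In the 250 bases before the start, GGGNNNTTCC stood in 7 of the 26 (Cxcl1, Cxcl2, Cxcl3, Cxcl10, Ccl1, Ccl9 and Ccl20) and in 5.31% of 27025 genes. The stricter GGGANTTTCC stood in Cxcl1, Cxcl2 and Cxcl3 and in 0.414% of genes. A match of letters is a description and no binding was measured.

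Cxcl1, the most abundant member, read 1689, 3642 and 2613 RPKM at middle age, 2075, 1613 and 1169 in the high gate, 1741 and 1804 in the low gate and 1500, 1464 and 505 in the negative gate. The VCAM1-negative libraries all lay below the middle-aged ones, while the other gates overlapped them. In that gate this held for 4 members (Cxcl1, Cxcl2, Ccl19 and Ccl27a), beside 20.3% of all tested genes. Cxcl1 differed by -1.28 ± 0.41 log2 units in VCAM1-negative against middle-aged cells and did not pass (limma adjusted p = 0.0594). With the replicate block in 11 libraries it passed there (adjusted p = 0.0227) and in the geriatric mean (-0.90 ± 0.29, adjusted p = 0.0441). Cxcl2 read 70.0, 129 and 74.5 RPKM at middle age, 68.2, 64.1 and 104 in the high gate, 65.3 and 69.5 in the low gate and 48.1, 56.7 and 27.4 in the negative gate, which again were the lowest. Cxcl2 fell by 1.04 ± 0.31 log2 units in VCAM1-negative against middle-aged cells (limma adjusted p = 0.0477). This call sits at the threshold. It was kept only without VCAM1-high replicate 3 and was lost in the other 10 omissions of 1 library, with adjusted p from 0.0526 to 0.133. Rescaling libraries to an equal sum or by the median ratio also lost it (adjusted p = 0.0576 and 0.0639).

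Cxcl3, the closest relative of Cxcl2, read 8.43, 26.8 and 26.5 RPKM at middle age, 5.21, 10.1 and 7.0 in the high gate, 5.58 and 11.9 in the low gate and 4.85, 8.57 and 2.52 in the negative gate. Middle-aged replicate 1 lay within the geriatric range and the other middle-aged libraries above it. Cxcl3 fell by 1.73 ± 0.48 log2 units in VCAM1-negative cells (limma adjusted p = 0.0372) and by 1.34 ± 0.40 in the geriatric mean (adjusted p = 0.0438). The first Cxcl3 call was lost without middle-aged replicate 2 or 3 or any VCAM1-negative library (adjusted p 0.0515 to 0.105). The second was lost without middle-aged replicate 2 or 3, VCAM1-high replicate 1 or 2, either VCAM1-low library, or VCAM1-negative replicate 1 or 3 (adjusted p 0.0529 to 0.156). Within each replicate number, Cxcl3 was lower in VCAM1-high and in VCAM1-negative than in middle-aged cells. Of the Cxcl2 transcript's 50-base stretches 5.84% also occur in Cxcl3, and 3.51% of those of Cxcl3 in Cxcl2, so a small share of reads could be credited to either. Cxcl5 read 3.01, 10.9 and 18.6 RPKM at middle age, 10.3, 8.15 and 4.62 in the high gate, 6.80 and 6.76 in the low gate and 5.82, 6.60 and 2.0 in the negative gate. Its groups overlapped and it passed in no comparison. Neutrophils express Cxcl2, and the sum of 5 neutrophil markers was 0 to 0.737 RPKM at middle age, 2.02 to 47.6 in the high gate, 5.79 to 8.73 in the low gate and 2.32 to 15.8 in the negative gate. The highest sum was in VCAM1-high replicate 3, the geriatric library with the most Cxcl2, and all 5 markers were at 0 in middle-aged replicates 1 and 2, where Cxcl2 was 70.0 and 129 RPKM. S100a8, one of the 5, was called higher in the geriatric mean, and the part of neutrophil RNA in Cxcl2 was not tested.

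The make-up of the family's RNA therefore differed between the ages. Ccl2, Ccl7, Ccl8, Ccl11 and Ccl12 together read 832, 998 and 691 RPKM in middle-aged libraries, where Cxcl1, Cxcl2, Cxcl3 and Cxcl5 summed to 1770, 3809 and 2733. The ratio of the CC sum to the ELR sum was 0.470, 0.262 and 0.253 in middle-aged libraries. It was 1.67, 1.38 and 0.840 in the high gate, 1.57 and 1.11 in the low gate, and 1.28, 1.10 and 1.55 in the negative gate. The lowest geriatric ratio was above the highest middle-aged one, also in VCAM1-high and VCAM1-negative replicates 3, where both sums were the lowest of their gate. The ELR genes held 61.4% to 75.7% of the family sum at middle age and 34.2% to 47.4% in geriatric libraries. These sets were formed with the levels known, so the ratio is a description.

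**Figure D3:**
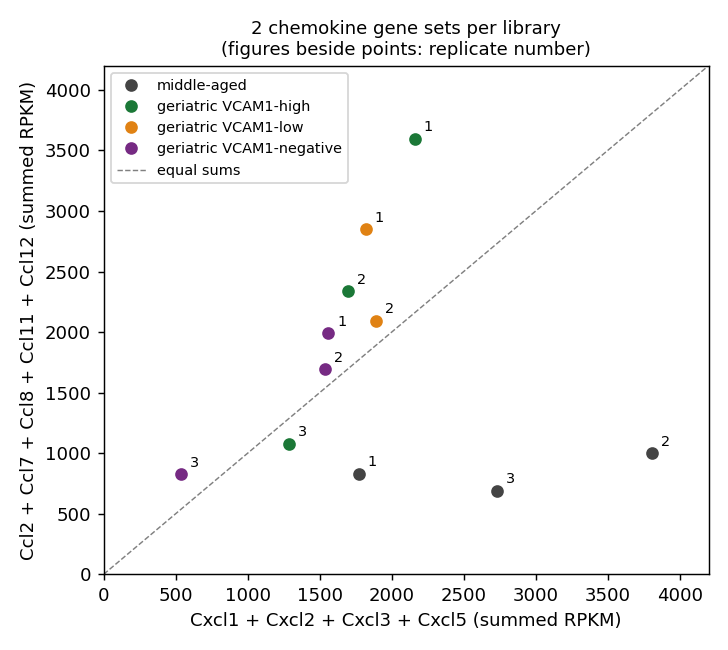
Summed RPKM of 5 CC genes (vertical axis) against that of 4 ELR-motif CXC genes (horizontal axis), 1 point per library, numbered by replicate and coloured by group. The 3 middle-aged points lie far below the dashed line of equal sums, with ratios of 0.253 to 0.470, and the geriatric points lie near or above it, at 0.840 to 1.67.

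Ccl19, a CCR7 ligand that directs T cells and dendritic cells to lymphoid tissue, had the members' lowest adjusted p between VCAM1-negative and VCAM1-high cells. Ccl19 did not pass there without a block (-1.47 ± 0.32 log2 units, limma adjusted p = 0.144). It read 44.1, 63.3 and 101 RPKM at middle age, 66.4, 63.8 and 45.2 in the high gate, 40.5 and 25.3 in the low gate and 24.5, 14.7 and 22.9 in the negative gate. VCAM1-high libraries fell inside the middle-aged range, VCAM1-low below it, and VCAM1-negative below all others. Over all tested genes, 8.08% were lower without overlap in VCAM1-negative than in VCAM1-high libraries. That share was 13.1% for VCAM1-low below VCAM1-high, 5.10% for VCAM1-negative below VCAM1-low and 24.9% for VCAM1-low below middle-aged. Ccl19 fell by 1.65 ± 0.32 log2 units in VCAM1-negative against middle-aged cells (limma adjusted p = 0.0118), from 69.3 ± 28.7 to 20.7 ± 5.25 RPKM (SD, n = 3 each). Without VCAM1-negative replicate 2 its adjusted p was 0.0510, and it passed in the other 10 omissions. In the geriatric mean it fell by 0.95 ± 0.26 (adjusted p = 0.0364). That call was lost without middle-aged replicate 2 or 3 or without replicate 2 of any geriatric gate (adjusted p 0.0531 to 0.151). Of the 50-base stretches of Ccl19 transcripts 52.0% also occur in Gm2564 and in Ccl19 pseudogenes, so its level depends on how the authors placed shared reads and is uncertain. The myofibre markers moved the opposite way in the negative gate, and their part in the Ccl19 values was not tested.

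The other homeostatic chemokine genes were low, and none passed in any comparison without a block. Ccl21a and Ccl21b, for further CCR7 ligands, share 71.6% and 100% of their 50-base stretches with other genes, among them each other. Ccl21b read 5.41, 8.42 and 9.08 RPKM at middle age, 10.4, 10.9 and 5.23 in the high gate, 10.6 and 10.8 in the low gate and 9.42, 10.2 and 5.66 in the negative gate. Ccl21a read 0.534, 0.362 and 6.63, then 0.779, 2.59 and 1.09, then 0.984 and 7.18, then 1.05, 2.20 and 2.08 RPKM in the same order. The ages overlapped for both, and the split between these copies is uncertain.

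Cxcl12, the CXCR4 ligand that retains stem cells in bone marrow, read 5.47, 5.58 and 15.8 RPKM at middle age, 6.32, 5.36 and 8.34 in the high gate, 6.41 and 5.18 in the low gate and 5.94, 3.36 and 9.02 in the negative gate. The replicates numbered 3 were the highest in each group that has one. Cxcl14, a chemokine of skin and other epithelia, read 2.43, 2.80 and 11.4 RPKM at middle age, 1.75, 3.54 and 14.4 in the high gate, 4.09 and 6.17 in the low gate and 16.1, 9.02 and 9.54 in the negative gate. Its replicate 3 stood apart in the first 2 groups, and in VCAM1-negative cells all 3 were high. Cxcl16, made as a membrane-bound CXCR6 ligand, was highest in VCAM1-high replicate 3. It read 5.58, 6.01 and 8.91 at middle age, 7.10, 4.96 and 13.5 in the high gate, 6.65 and 5.44 in the low gate and 6.09, 5.13 and 7.46 in the negative gate.

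Cxcl13, the CXCR5 ligand that attracts B cells, was high in 3 scattered geriatric libraries. It read 1.01, 1.97 and 1.86 RPKM at middle age, 0.430, 1.42 and 12.3 in the high gate, 0.439 and 5.18 in the low gate and 0.785, 13.2 and 1.35 in the negative gate. Ccl27a, for a skin chemokine, read 2.60, 3.66 and 3.44 RPKM at middle age, 2.74, 1.30 and 1.43 in the high gate, 2.47 and 0.469 in the low gate and 1.15, 1.68 and 0.562 in the negative gate. The VCAM1-low and VCAM1-negative libraries lay below the middle-aged ones, as for 24.9% and 20.3% of all tested genes. Ccl27a came near the threshold in VCAM1-negative cells at -1.02 ± 0.33 log2 units (limma adjusted p = 0.0604). With the replicate block in 11 libraries Ccl27a passed there (adjusted p = 0.0377) and in the geriatric mean (-0.87 ± 0.27, adjusted p = 0.0351). It shares 45.0% of its 50-base stretches with copies such as Ccl27b and overlaps exons of Il11ra1 on the other strand, which the library kit is not stated to separate. Ccl25, the CCR9 ligand of gut and thymus, read 2.86, 2.33 and 1.29 RPKM at middle age, 1.70, 0.973 and 1.67 in the high gate, 1.31 and 0.823 in the low gate and 1.05, 0.829 and 1.73 in the negative gate, with overlapping groups. Ccl25 and Cxcl16 also overlap opposite-strand exons, of Elavl1 and Zmynd15.

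Cxcl10, for the interferon-induced CXCR3 ligand IP-10, is shown with the interferon-type motif GAAANNGAAA and the κB-type motif GGGNNNTTCC of its promoter, and Ccl19 with the first of these. Both are in capitals, on the gene's strand, from RefSeq on GRCm38.p6.
Cxcl10, chr5:92348975-92349109, − strand, bases 220 to 86 before the start: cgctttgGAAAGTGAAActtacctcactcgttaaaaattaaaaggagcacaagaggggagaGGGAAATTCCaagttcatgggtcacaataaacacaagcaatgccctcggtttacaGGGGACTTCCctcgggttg
Ccl19, chr4:42756555-42756585, − strand, bases 220 to 190 before the start: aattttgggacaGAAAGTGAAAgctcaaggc
GAAANNGAAA on either strand stood in 3 of the 26 member promoters (Cxcl10, Ccl19 and Cxcl14) and in 3.46% of genes. Cxcl10 and Ccl19 carry the same letters, GAAAGTGAAA.

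Cxcl10 read 187, 90.4 and 56.2 RPKM at middle age, 203, 243 and 87.3 in the high gate, 143 and 210 in the low gate and 114, 156 and 43.1 in the negative gate. The ages overlapped, and the middle-aged replicates alone ran from 56.2 to 187. Its geriatric mean differed by 0.48 ± 0.46 log2 units (limma adjusted p = 0.483). Art3 overlaps Cxcl10 exons on the other strand. Cxcl9, the second CXCR3 ligand, was near the detection filter at 0.216, 0.293 and 1.20 RPKM at middle age, 1.05, 1.64 and 1.59 in the high gate, 1.10 and 2.1 in the low gate and 1.75, 2.29 and 0.284 in the negative gate. It did not pass in any comparison.

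Ccl3, Ccl4, Ccl6 and Ccl9, attractants made largely by macrophages and other myeloid cells, were led by 1 library. Ccl6 read 2.87, 0.0312 and 5.20 RPKM at middle age, 0.139, 0.831 and 48.5 in the high gate, 2.91 and 12.0 in the low gate and 11.6, 14.8 and 14.4 in the negative gate. VCAM1-high spanned the lowest and the highest geriatric value, and the VCAM1-negative libraries were even and above all middle-aged ones. In that gate the latter held for 6 members, beside 18.7% of all tested genes. Among these members, Ccl3, Ccl8 and Ccl17 entered the test through geriatric libraries, which favours such a split. Ccl4 read 0.417, 0 and 2.02 RPKM at middle age, 0.151, 0.686 and 14.5 in the high gate, 0.421 and 1.26 in the low gate and 0.661, 3.01 and 1.52 in the negative gate. Ccl9 read 0.418, 0 and 1.65, then 0, 0.0684 and 8.88, then 0.0771 and 0.924, then 1.37, 1.35 and 3.32 RPKM in the same order. Ccl3 read 0.0994, 0 and 0.717, then 0, 0.104 and 10.3, then 0 and 0.997, then 0.854, 1.99 and 2.31 RPKM. VCAM1-high replicate 3 was the highest library for each of the 4 genes.

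The 4 genes summed to 82.2 RPKM in VCAM1-high replicate 3 and to 0.0312 to 21.5 in the other libraries. None of the 4 passed in any comparison without a block. The sum of the 8 macrophage markers, all present in the table, was 25.5, 5.22 and 126 RPKM at middle age, 2.64, 13.4 and 777 in the high gate, 33.8 and 46.7 in the low gate and 66.0, 78.0 and 203 in the negative gate. In VCAM1-high replicate 3 it consisted mostly of Lyz2 (591 RPKM) with C1qb at 84.1, C1qa at 39.2 and Csf1r at 20.7. The library with the highest marker sum and the 2 with the lowest were also those of the 4 chemokine genes, and the part of macrophage RNA in these values was not tested. The sort excluded CD45+ cells.

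**Figure D4:**
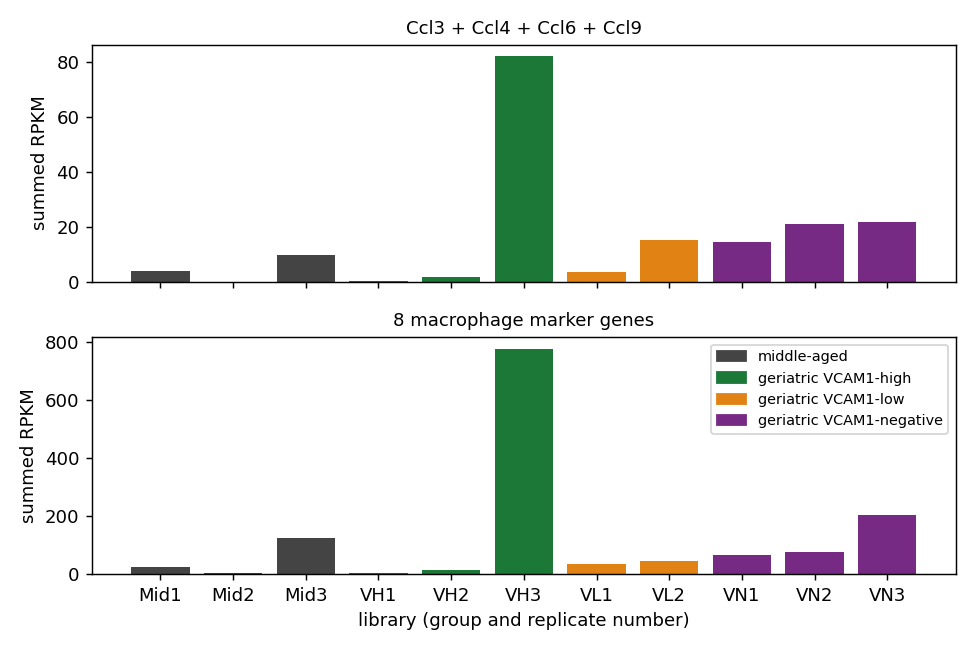
Summed RPKM of Ccl3, Ccl4, Ccl6 and Ccl9 (upper panel) and of 8 macrophage marker genes (lower panel), 1 bar per library, coloured by group. VCAM1-high replicate 3 (VH3) has the tallest bar in both panels, 82.2 and 777 RPKM, and VCAM1-high replicate 1 and middle-aged replicate 2 have the lowest.

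Ccl17, a CCR4 ligand of dendritic cells, passed the filter only through its geriatric libraries. It read 0.153, 0 and 0.0648 RPKM at middle age, 0.292, 1.92 and 0.351 in the high gate, 0.541 and 0.645 in the low gate and 0.695, 1.17 and 0.592 in the negative gate. The ages did not overlap, but 1 read is 0.098 RPKM at the lowest depth, and the difference did not pass (0.67 ± 0.24 log2 units in the geriatric mean, limma adjusted p = 0.0821).

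Among the geriatric gates, no member passed between VCAM1-negative and VCAM1-high cells in limma without a block, where 0.00% of all 11568 genes were called. At an unadjusted p under 0.05 there were 2 members, Cxcl2 and Ccl19, among 755 genes. Replicate numbers were taken to pair these 2 groups from the correlation of deviations in these same data. The labels do not say what a number stands for, so the blocked p-values rest on that assumption. With that number as a block among the 8 geriatric libraries, 4 members were lower in VCAM1-negative cells, beside 3.26% of all genes called lower. Ccl19 fell by 1.47 ± 0.20 log2 units (adjusted p = 0.0161) and Ccl7 by 0.60 ± 0.11 (adjusted p = 0.0353), alongside Cxcl10 (adjusted p = 0.0166) and Ccl2 (adjusted p = 0.0289). None of the 4 passed with the block in all 11 libraries or in these 2 groups alone.

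Leaving out 1 library moved these 4 blocked calls. The Ccl2 call was lost without any of the 8 geriatric libraries (limma adjusted p 0.0506 to 0.120). The Ccl7 call was kept without VCAM1-high replicate 3 or VCAM1-negative replicate 3 and was lost otherwise (0.0996 to 0.137). Cxcl10 and Ccl19 were kept also without VCAM1-negative replicate 1. They were lost without VCAM1-high replicate 1 or 2, either VCAM1-low library or VCAM1-negative replicate 2 (adjusted p 0.0601 to 0.0752 for Cxcl10 and 0.0535 to 0.0696 for Ccl19).

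Within replicate numbers 1, 2 and 3, the VCAM1-negative level was 0.368, 0.230 and 0.507 of the VCAM1-high level for Ccl19. It was 0.576, 0.680 and 0.730 for Ccl7 and 0.723, 0.907 and 0.432 for Cxcl1. Ccl11 gave ratios of 0.516, 0.786 and 0.883. VCAM1-negative was the lower gate for these genes in every number. The same held for 9 members in all (these 4, Ccl2, Cxcl2, Cxcl3, Cxcl5 and Cxcl10), beside 30.6% of all tested genes, and for none in the other direction, beside 13.4% of genes. Myofibre transcripts are a larger part of VCAM1-negative libraries, and RPKM is a share of a library's reads. The part of that in these ratios was not tested. Between VCAM1-low and either of the other gates, limma without a block called no member and none of the 11568 genes (0.00% called in both comparisons). Unadjusted, Ccl19 was the 1 member under 0.05 against VCAM1-high, among 337 genes, and no member was against VCAM1-negative, among 217 genes.

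**Figure D5:**
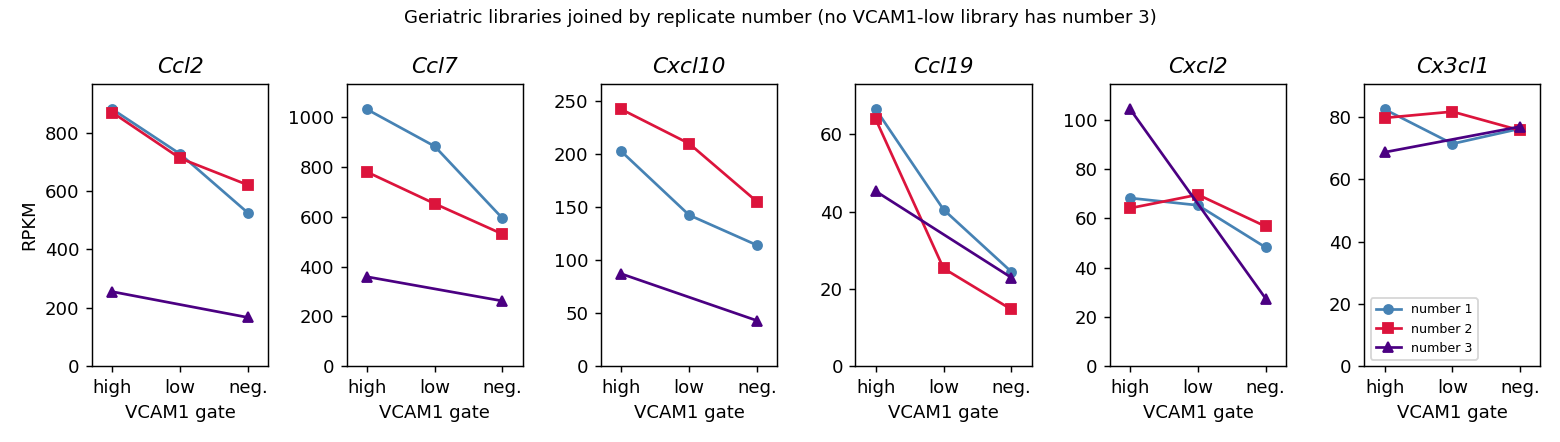
RPKM of 6 chemokine genes in the geriatric libraries by VCAM1 gate, on linear axes from 0, with lines joining libraries of the same replicate number. Ccl2, Ccl7, Cxcl10 and Ccl19 step down from high to negative in each number, with number 3 lowest for Ccl2, Ccl7 and Cxcl10, while Cx3cl1 stays between 68.7 and 82.5.

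The receptors for these ligands were mostly at or near 0 in the sorted cells. Of 18 conventional chemokine receptor genes, 2 passed the filter (Cxcr4 and Ccr1), and neither passed the test between geriatric and middle-aged cells. The 18 genes summed to 8.02 to 13.2 RPKM at middle age and 16.6 to 27.2 in geriatric libraries, without overlap. Taken singly, 9.04% of all tested genes were higher in geriatric libraries without overlap. Cxcr4 made up most of the middle-aged sums and its own values overlapped between the ages, so the split also rests on low genes. Cxcr4, the CXCL12 receptor, read 12.8, 11.1 and 5.90 RPKM in middle-aged libraries and 10.3 to 26.9 in geriatric ones (0.91 ± 0.29 log2 units, limma adjusted p = 0.0562). Ccr2, the receptor of CCL2 and CCL7, stayed at 0 to 1.25 RPKM and Cxcr2, the receptor of the ELR chemokines, at 0 to 0.929, both with their highest or second highest value in VCAM1-high replicate 3. Ackr3, an atypical receptor that takes up CXCL12, was well read at 214, 398 and 408 RPKM at middle age and 338 to 663 in geriatric libraries, and did not pass (0.61 ± 0.23, adjusted p = 0.0939). Of 6 enzymes that cut or shed chemokines, Mmp2, a gelatinase, passed in the geriatric mean. It read 138, 191 and 362 RPKM at middle age and 52.4 to 137 in geriatric libraries, and fell by 1.52 ± 0.32 log2 units (adjusted p = 0.0148).

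Pathways that act on chemokine genes were read through lists of known components, again for the geriatric mean against middle-aged cells. Of 14 genes for NF-κB subunits and their feedback regulators, 6 were higher, among them Nfkb2, Nfkbib and Tnip1, and Ikbke was lower, with a median log2 fold change of 0.49. Nfkbib, an inhibitor of NF-κB, read 77.8, 72.3 and 70.1 RPKM at middle age and 88.5 to 157 in geriatric libraries (0.66 ± 0.17, limma adjusted p = 0.0273). Its ages did not overlap, as for 9.04% of all tested genes in that direction. Ikbke, a kinase of this pathway, read 2.62, 2.0 and 2.61 RPKM against 0.303 to 2.45. Of 12 interferon response genes, 9 were higher and none lower, with a median of 0.93. Stat2, a transducer of type I interferon signals, read 18.9, 21.1 and 16.9 RPKM at middle age and 33.5 to 84.4 in geriatric libraries (1.42 ± 0.30, adjusted p = 0.0149). Irf7, an interferon regulatory factor, read 41.5, 41.0 and 47.0 against 57.4 to 82.4 RPKM (0.78 ± 0.14, adjusted p = 0.00861). Isg15, Gbp2 and Gbp3 did not pass (adjusted p = 0.0706, 0.0769 and 0.188).

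Of 15 cytokine and cytokine receptor genes, 13 were tested and 4 were higher, all of them receptors (Tnfrsf1b, Ifngr1, Ifnar2 and Tlr2). Tnfrsf1b, for TNF receptor 2, read 2.42, 3.21 and 4.50 RPKM at middle age and 6.45 to 11.5 in geriatric libraries (1.03 ± 0.19, limma adjusted p = 0.00908). Of 10 immediate early genes, which dissociation is known to induce, Atf3 was called, reading 661, 689 and 797 RPKM at middle age and 800 to 1799 in geriatric libraries (0.85 ± 0.16, adjusted p = 0.00923). Pf4 and Ppbp, chemokine genes under other symbols that mark platelets, did not pass. Over all tested genes the median log2 fold change in this comparison was -0.01, and 15.8% of genes were called in either direction.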

How the data were processed

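RNA was read in 11 libraries made with the SMART-Seq v4 kit and sequenced as paired ends, per the labels' protocols. The authors deposited RPKM values per gene symbol. Per the submitters' processing notes, the tools were STAR 2.7.5b, Bowtie2 2.1.0, cutadapt 3.1 and SAMtools 0.1.19, and the build was GRCm39, while counting tool and annotation were not given in the sources used here. Testing covered the 11568 genes reaching 1 RPKM in 2 or more libraries, by limma 3.58.1 (R 4.3.3) as log2(RPKM + 1), in 1 model of 4 group means with a variance trend, and p-values were adjusted over all of them. The script was tested on simulated data. Shared 50-base stretches were counted on GENCODE M21 transcripts. The members and gene lists were chosen with earlier results of these data known. Members averaging 1 RPKM or more in any group were named, with up to 4 called genes per pathway list and 4 main receptors. Ccl17, Ccl12, Ccl5, Ccr1, Pf4, Ppbp, Isg15, Gbp2, Gbp3 and the marker genes were named outside that rule, after their values were seen.

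Same-numbered libraries were checked for shared deviations from their group means. The correlations were 0.414, 0.581 and 0.403 between VCAM1-high and VCAM1-negative, which is taken as pairing in the data. Between VCAM1-high and middle-aged they were 0.211, 0.332 and 0.554. Differently numbered libraries of those 2 groups gave -0.483 to 0.331, the highest between VCAM1-high replicate 1 and middle-aged replicate 2. Pairing of these 2 groups by number is therefore uncertain. The labels do not say what a number stands for, and mice of different ages cannot be the same animals. Between VCAM1-negative and middle-aged the same-numbered correlations were -0.025, 0.033 and 0.081. Those of VCAM1-low were 0.486 and 0.509 with VCAM1-high, 0.523 and 0.569 with VCAM1-negative, and 0.147 and 0.032 with middle-aged.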

Additional observations from a re-analysis of the deposited data

How the results depend on the processing

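Of 3866 fold changes of single members under other settings, none turned from a call in one direction to the other. The sign changed without a call in 227, a call was lost in 77 and gained in 103. Some counts of called members did move. For VCAM1-high against middle-aged the count of 0 became 2 with a pseudocount of 0.1, 1 among genes averaging 5 RPKM or more, 5 with the replicate block in 11 libraries and 2 without the 3 libraries numbered 3. For VCAM1-low against middle-aged the count of 2 became 0 without the filter, 4 with the replicate block in 11 libraries and 4 without the libraries numbered 3. With no filter, the count of 6 for VCAM1-negative against middle-aged became 2 and the count of 5 for the geriatric mean became 3. With the replicate block in 11 libraries the latter became 9. VCAM1-negative against VCAM1-high moved from 0 to 4 with the block in the 8 geriatric libraries. The share of all genes called rose with the block too. Against middle-aged it rose from 0.605% to 6.98% for VCAM1-high and from 4.11% to 15.8% for VCAM1-low. For the geriatric mean it rose from 15.8% to 30.9%, and for VCAM1-negative against VCAM1-high from 0.00% to 4.17%. These counts therefore do not set the members apart from other genes. The replicate block was paired by number only. For VCAM1-negative and VCAM1-low against middle-aged the numbers are not shown to pair samples, and for VCAM1-high against middle-aged this is uncertain. VCAM1-low shares 2 numbers with the other gates. The deviations of its 2 libraries mirror each other, so its correlations of 0.486 to 0.569 with those gates rest on little.

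Leaving out each library in turn gave 0 to 2 calls for VCAM1-high, 0 to 8 for VCAM1-negative, 0 to 3 for VCAM1-low and 3 to 7 for the geriatric mean, each against middle-aged. Among the gates it gave 0 throughout. In the blocked fits the ranges were 0 to 5 for VCAM1-high against middle-aged and 0 to 7 for VCAM1-negative against VCAM1-high. Omission fits and blocked fits of only 2 groups were chosen after seeing the data where they combine both. The causes of these moves were not tested. Rescaling by the median ratio shifted libraries by -0.085 to 0.092 log2 units. Depth limits the members under about 1 RPKM, where 1 read of a 1 kb gene is 0.05 RPKM at the lowest estimated depth.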

Other observations

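Erythroid transcripts were present in the sorted cells and differed widely between libraries. The sum of Hbb-bs and Alas2 was 17.1, 4.36 and 128 RPKM at middle age, 11.2, 42.7 and 382 in the high gate, 409 and 508 in the low gate and 269, 510 and 149 in the negative gate. VCAM1-high replicate 1, with one of the lowest sums, had the highest Ccl11, Ccl7, Ccl2 and Cx3cl1 values of the series. Middle-aged replicate 1, with a sum of 17.1, had the lowest Ccl11 and Cx3cl1 values. The part of erythroid RNA in these values was not tested. Among pericyte and smooth muscle genes, the sum of 5 was highest in middle-aged replicate 1, at 359 RPKM, against 37.7 to 186 in the other libraries.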
